A study of Glycine max with 22 samples.

Results

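The comparison sets R30, mature leaves of soybean (Glycine max) plants that had lost their buds and then regrown shoots, against C0, mature leaves of plants harvested just before bud removal began. It holds 7 of the 22 arrays of the study, 3 of R30 and 4 of C0, chosen by the group and time in the sample labels, and it covers the 37593 soybean probe sets among the 61170 on the Affymetrix Soybean GeneChip. In R30 every axillary and terminal bud had been picked off daily for 15 days from plants 30 days old, shoots had then grown back for 15 days, and leaves were taken at an age of 60 days. The C30 plants, untreated and also 60 days old, were represented by 3 arrays, and the C0 plants were untreated and 30 days old. D15 leaves came from the last day of bud removal and R20 leaves from day 5 of regrowth, with 3 arrays each. All plants grew in chambers in pots of 4 L with days of 16 h. The labels give neither a cultivar nor the number of plants in a sample, so the p-values reflect sample-to-sample spread, which may be technical. R30 and C0 differ both in treatment and in 30 days of plant age, which cannot be told apart in this comparison alone, and the C30 arrays are therefore given beside it.

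A mature leaf is a source organ that exports sugars and amino acids to growing shoot tips, flowers and pods. When those sinks are taken away, soybean leaves are known to store nitrogen in vegetative storage proteins, vacuolar glycoproteins of the paraveinal mesophyll, and to withdraw it again when sinks return. Soybean leaves also make isoflavonoids, which branch from the flavonoid pathway at isoflavone synthase and lead to pterocarpan phytoalexins. Nitrate taken up by the plant is reduced in leaves by nitrate reductase and then nitrite reductase.

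After 30 days the R30 leaves carried more transcript than C0 leaves for a Bowman-Birk protease inhibitor, for enzymes of flavonoid and pterocarpan synthesis, for a sieve element protein and for an acid phosphatase. They carried less for nitrate and nitrite reductase, an alternative oxidase and a cell wall enzyme. The fit across 32776 soybean probe sets called 369 of them (1.13%) at an adjusted p under 0.05, with 236 higher in R30 (0.72%) and 133 lower (0.406%). The log2 differences of the called probe sets ran between -6.58 and 8.33, their median size was 2.5, and 258 exceeded 2 in size. The probe set with the largest rise has no gene symbol, as is true of 231 of the 369. Among the 1018 tested genes with an informative name, 35 were called (3.44%), 24 higher (2.36%) and 11 lower (1.08%). An unadjusted p under 0.05 in limma was reached by 4082 of the 32776 probe sets, to be set beside such counts for gene lists below. Values below are deposited array signals on a linear scale, differences are on the log2(signal + 1) scale with their standard errors, and adjusted p-values come from the limma fit.

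C0 replicate 4 stood apart from the other arrays of its label. It had a median absolute log2 difference of 0.720 from the other C0 arrays, with a range of 0.629 to 0.796, with correlations of 0.806 to 0.869. Its difference was 0.497 from C30 replicate 2 and 0.447 from C30 replicate 3, with correlations of 0.907 and 0.919. From C30 replicate 1 it was 0.877, with a correlation of 0.790, so it was nearer to 2 of the 3 C30 arrays, and farther from the remaining one, than to any C0 array. Without it the same fit called 693 probe sets (2.11%), 381 higher in R30 (1.16%) and 312 lower (0.952%). Of these, 331 were also called with all arrays, 212 higher and 119 lower, and 0 had opposite signs. A further 38 were called only with all arrays and 362 only without C0 replicate 4, and 353 of those 362 had an unadjusted p under 0.05 with all arrays. Without it 47 informative genes were called (4.62%), 32 higher (3.14%) and 15 lower (1.47%). Of the 28 named genes called with all arrays, 27 kept the call without it, MYB70 being the exception. The 12 rises and 8 falls among them were named for being called both ways, so they could not lose the call. Of the other informative genes called with all arrays, CHI1A, PTS-L5, AS2, OAS-TL6 and D14 lost it. Values below are given both ways where the array changes the call or the size. Other arrays weigh as much: the count was 29 without R30 replicate 1, 43 without R30 replicate 2, 114 without C0 replicate 1 and 126 without C0 replicate 2, and 24 of the 28 named calls were lost when either of those R30 arrays was left out. BBI-1, CHI2-A, EN2 and NIR were called under each of the 18 alternative settings.

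The R30 arrays were alike among themselves and about as far from C0 as the C0 arrays were from each other. Between R30 and C0 arrays the median absolute log2 difference had a median of 0.557 over 12 pairs and a range of 0.410 to 0.775. Within R30 it was 0.353 over 3 pairs, and within C0 it was 0.618 over 6 pairs. Without C0 replicate 4 the R30 to C0 median was 0.554 and the median within C0 was 0.488. Between C30 and C0 arrays it was 0.753, and 0.789 without C0 replicate 4, while within C30 it was 0.781. C30 replicate 1 stood apart from its group too, at 0.781 from C30 replicate 2 and 0.908 from C30 replicate 3, which were 0.450 from each other. These pairs share arrays and carry no test, and with all arrays the spread within the untreated groups is as wide as the distance between groups.

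**Figure D1:**
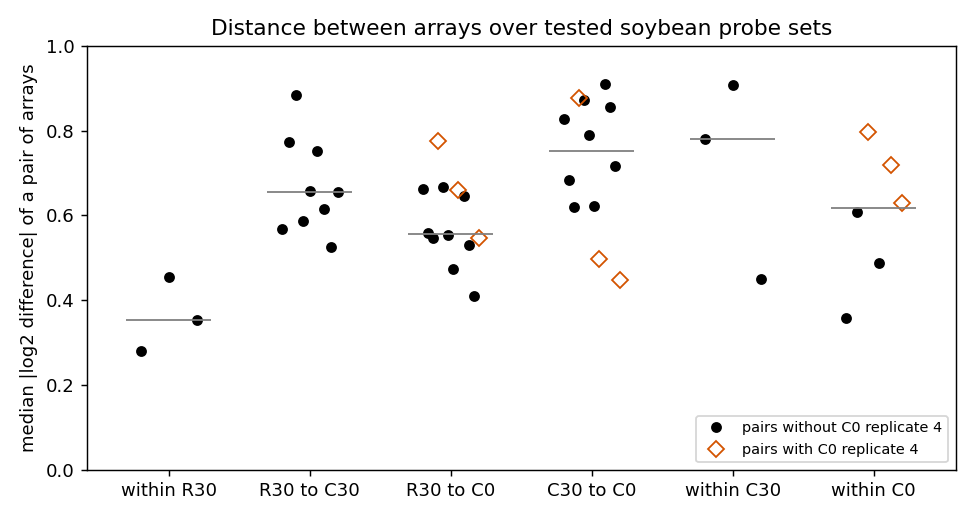
Each point is a pair of arrays, with the median absolute log2 difference over the tested soybean probe sets on the vertical axis and the kind of pair on the horizontal axis; open diamonds are pairs that include C0 replicate 4 and lines mark medians. The 3 pairs within R30 have a median of 0.353, the R30 to C0 pairs 0.557 and the C30 to C0 pairs 0.753, and pairs of C0 replicate 4 with the other C0 arrays reach 0.796.

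Technical measures differed between the arrays as follows. The floor of an array, the 95th percentile of its oomycete and nematode probe sets, was 17.9 to 18.4 in R30, 12.9 to 18.5 in C30 and 14 to 16.8 in C0, so R30 and C0 did not overlap. Between 75.2% and 76.5% of soybean probe sets exceeded it in R30, and between 74.7% and 76.5% in C0. The ratio of the actin 3' to 5' signal, a measure of RNA integrity, was 2.83 to 4.47 in R30, 2.40 to 8.37 in C30 and 3.77 to 8.27 in C0, with C0 replicate 4 at the top of its group. With that ratio as a covariate, 524 probe sets were called and each of the 28 named genes called in R30 against C0 kept its call. R20 replicate 3, which is among the 22 arrays of the fit, had a ratio of 136, against 2.29 to 8.37 on all others. Its median soybean signal was 38.2 and 60.3% of soybean probe sets exceeded its floor. It sets an end of each R20 range given below for VSPB, BBI-1, EN2 and AOX1. All 12 photosynthesis and leaf identity genes were above the floor in R30, C30 and C0, and of 32 seed genes 19 were above it on no R30 array, 17 on no C30 array and 20 on no C0 array. Of 14 nodule genes, 10 were above the floor on no R30 array and 8 on no C0 array. Fewer cells of a type and less RNA per cell cannot be told apart in these whole leaf samples.

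More probe sets were called in untreated leaves over the same interval than in treated leaves. C30 against C0 called 1426 (4.35%), 394 higher (1.2%) and 1032 lower (3.15%), and without C0 replicate 4 it called 3023 (9.22%), 1166 higher (3.56%) and 1857 lower (5.67%). Of the informative genes 111 were called (10.9%), 31 higher (3.05%) and 80 lower (7.86%), and without C0 replicate 4 213 (20.9%), 84 higher (8.25%) and 129 lower (12.7%). Both comparisons share the C0 arrays, so no overlap between them is given, and their counts carry no test against each other. The C30 count depends on the arrays, being 351 without C0 replicate 1, 383 without C0 replicate 2 and 72 when fitted on the C30 and C0 arrays alone, where R30 against C0 fitted on its own arrays gave 374. The difference itself, R30 against C30, called 729 probe sets (2.22%), 597 higher in R30 (1.82%) and 132 lower (0.403%). Of the informative genes it called 70 (6.88%), 58 higher in R30 (5.7%) and 12 lower (1.18%).

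The vegetative storage proteins were at high signals in R30 leaves and in 3 of the 4 C0 arrays. VSPB, the storage protein beta, had 11723, 12136 and 7893 in R30 leaves, 38.8, 30.4 and 5.32 in C30 leaves, and 2408, 2973, 6156 and 22.9 in C0 leaves. All R30 arrays lay above all C0 arrays, and C0 replicate 4 lay among the C30 values. The R30 minus C0 difference was 3.36 ± 1.41 with an adjusted p of 0.31, and 1.56 ± 0.995 without C0 replicate 4, with an adjusted p of 0.537, so it did not pass the test. VSPA, the alpha protein, had 9128, 9367 and 7332 in R30 leaves, 32.0, 36.9 and 12.3 in C30 leaves, and 8459, 7322, 6889 and 113 in C0 leaves. R30 overlapped C0 replicates 1 to 3, and again C0 replicate 4 was low. Its difference was 1.70 ± 1.26 with an adjusted p of 0.666, and without C0 replicate 4 it was 0.18 ± 0.957 with an adjusted p of 0.967.

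Both storage protein transcripts fell in untreated leaves over the same interval. C30 minus C0 was -6.69 for VSPA, with an adjusted p of 0.00624, and -5.67 for VSPB, with an adjusted p of 0.0283. The direct difference of R30 minus C30, in which the C0 term cancels, was 8.39 ± 1.35 for VSPA and 9.03 ± 1.51 for VSPB, with adjusted p-values of 0.00182 and 0.00264. In treated plants VSPB was already at 10066 to 12944 at D15 and at 10830 to 13004 at R20. With all arrays the 2 other VSPB probe sets and the 6 other VSPA probe sets had the same sign of R30 minus C0, and none was called. Without C0 replicate 4 the VSPB ones were at 0.67 and 0.47. The VSPA ones then ran from -0.46 to 0.40, on both sides of 0, and again none was called.

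BBI-1, a Bowman-Birk inhibitor of trypsin-like and chymotrypsin-like proteases, had the largest rise among the named genes. It had 11379, 9624 and 4601 in R30 leaves, 8632, 557 and 727 in C30 leaves, and 30.6, 33.5, 44.5 and 186 in C0 leaves. All R30 arrays were far above the C0 arrays, and C0 replicate 4 was the highest of its group. The difference was 7.17 ± 0.989 with an adjusted p of 0.00168, and 7.76 ± 1.01 without C0 replicate 4, with an adjusted p of 0.000705. Treated leaves had 421 to 1304 at D15 and 3155, 4205 and 9281 at R20, the last being R20 replicate 3. BBI-1 was also called in untreated leaves, with a C30 minus C0 difference of 4.78 and an adjusted p of 0.0109, and R30 minus C30 was 2.39 with an adjusted p of 0.302. Its 1 other probe set was called in the same direction. Of 4 tested protease inhibitor genes BBI-1 was the only one called in R30 against C0, and the median difference of the 4 was 2.54, or 1.81 without C0 replicate 4, against 0.09 and 0.10 over all tested probe sets.

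Lipoxygenases, which oxidise polyunsaturated fatty acids and of which some serve as leaf storage proteins in soybean, had 1 of 7 tested members called higher and 0 lower, with a median of 1.22. The called member, LOX1.4, had 5608, 6246 and 5919 in R30 leaves, 793, 1651 and 509 in C30 leaves, and 952, 1477, 3307 and 1801 in C0 leaves. R30 lay above both other groups on every array. The R30 minus C0 difference was 1.80 ± 0.372 with an adjusted p of 0.0216, and R30 minus C30 was 2.76 ± 0.398 with an adjusted p of 0.000722. C30 minus C0 was -0.96 with an adjusted p of 0.16, an estimate of the opposite sign that did not pass the test. The 4 other LOX1.4 probe sets had the same sign of R30 minus C0 as the named one, and none was called. In untreated leaves 3 of the 7 lipoxygenases were called lower in C30 than in C0, beside 7.86% of all informative genes.

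Saponin synthesis, which builds triterpene glycosides, had 5 tested genes, of which 0 were called in R30 against C0 by limma and 4 had an unadjusted p under 0.05, with a median of 1.25. SGT2, a saponin glycosyltransferase, had 5275, 4679 and 3613 in R30 leaves, 172, 403 and 162 in C30 leaves, and 1396, 1383, 1215 and 656 in C0 leaves. The R30 arrays did not overlap those of C0, yet the difference of 2 ± 0.539 log2 units had an adjusted p of 0.0767. All 5 genes were called lower in C30 than in C0, with a median of -2.90, and all 5 were called higher in R30 than in C30, with a median of 4.39. Over all informative genes 7.86% were called lower in C30 than in C0, and 5.7% higher in R30 than in C30.

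The flavonoid core pathway had 4 of 19 tested genes called higher in R30 than in C0 and 0 lower, with a median difference of 0.82. CHI2-A, a chalcone isomerase, which closes the chalcone ring, had 2737, 1276 and 1117 in R30 leaves, 218, 108 and 54.7 in C30 leaves, and 70.4, 162, 92.6 and 82.3 in C0 leaves. The R30 arrays stood above those of both untreated groups, which overlapped each other. The R30 minus C0 difference was 4.01 ± 0.586 with an adjusted p of 0.00219, C30 minus C0 was 0.17, and R30 minus C30 was 3.84 ± 0.626 with an adjusted p of 0.00207. CHI1B1, another chalcone isomerase, had 247, 161 and 138 in R30 leaves, 30.9, 44.2 and 9.80 in C30 leaves, and 31.6, 33.6, 36.7 and 29.7 in C0 leaves. Here too R30 stood clear of both other groups, with a difference from C0 of 2.39 ± 0.485 and an adjusted p of 0.0194. The 3 other CHI1B1 probe sets had the same sign of R30 minus C0, and none was called.

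CHS8, a chalcone synthase, which makes the first committed compound of the pathway, had 5515, 4544 and 4290 in R30 leaves, 4370, 1481 and 318 in C30 leaves, and 212, 560, 919 and 346 in C0 leaves. R30 was above C0 throughout and overlapped the widely spread C30 arrays. The R30 minus C0 difference was 3.43 ± 0.702 with an adjusted p of 0.02, and R30 minus C30 was 1.90 with an adjusted p of 0.231. With all arrays the 4 other CHS8 probe sets were called in the same direction as R30 minus C0. Without C0 replicate 4 some of them lost the call, with adjusted p-values of 0.0752 and 0.0638. The fourth called gene was the chalcone isomerase CHI1A, with a difference of 2.32 ± 0.524 and an adjusted p of 0.0367, which became 0.0565 without C0 replicate 4.

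Isoflavonoid and pterocarpan synthesis had 4 of 18 tested genes called higher and 0 lower, with a median of 1.89, and 17 of the 18 estimates were above 0. CHR5, a chalcone reductase, which acts with chalcone synthase to make the precursor of daidzein, had 2864, 2000 and 1109 in R30 leaves, 680, 322 and 75.9 in C30 leaves, and 78.9, 167, 277 and 210 in C0 leaves. R30 exceeded both groups on every array. The difference from C0 was 3.47 ± 0.639 with an adjusted p of 0.0103, and that from C30 was 2.85 ± 0.684 with an adjusted p of 0.0326.

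PTS-L4, named as like pterocarpan synthase, had 768, 631 and 615 in R30 leaves, 832, 285 and 48.5 in C30 leaves, and 36.3, 77.5, 151 and 56.8 in C0 leaves. CYP93A1, a cytochrome P450 that hydroxylates a pterocarpan on the way to glyceollin, had 163, 157 and 82.6 in R30 leaves, 175, 62.0 and 34.6 in C30 leaves, and 5.24, 17.47, 51.9 and 20.3 in C0 leaves. Both overlapped C30, through C30 replicate 1, and lay above C0. Their R30 minus C0 differences were 3.23 ± 0.727 for PTS-L4 and 2.77 ± 0.594 for CYP93A1, with adjusted p-values of 0.0353 and 0.0269. C30 minus C0 was 1.68 and 1.95, with adjusted p-values of 0.214 and 0.0689. R30 minus C30 was 1.56 and 0.82, with adjusted p-values of 0.372 and 0.594. The 1 other CYP93A1 probe set had the same sign of R30 minus C0 and was not called, with an adjusted p of 0.123. PTS-L5 was the remaining called gene, with a difference of 3.34 ± 0.766 and an adjusted p of 0.0394, or 0.0602 without C0 replicate 4. In untreated leaves 0 of the 19 flavonoid and 0 of the 18 isoflavonoid genes were called between C30 and C0 by limma, with 5 and 3 at an unadjusted p under 0.05. Over all tested probe sets 6051 of 32776 reached that level in C30 against C0, and 10.9% of informative genes were called. In R30 against C30, 2 of the 19 and 1 of the 18 were called, all higher, beside 5.7% of all informative genes.

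**Figure D2:**
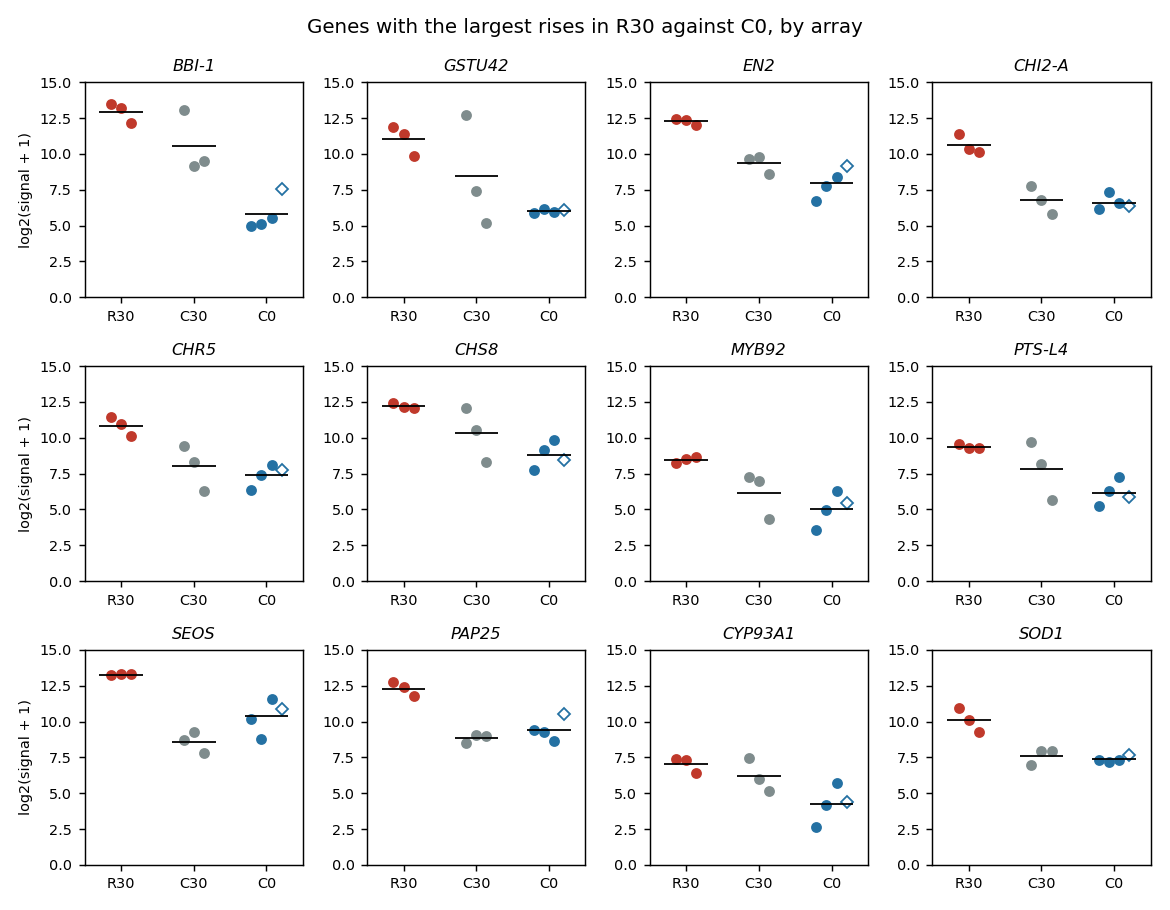
The 12 named genes with the largest rises are shown with log2(signal + 1) on the vertical axis and R30, C30 and C0 arrays as points, the open diamond being C0 replicate 4 and lines marking group means. In all 12 panels the 3 R30 points lie above the 4 C0 points. For BBI-1, GSTU42, CHS8, PTS-L4 and CYP93A1, C30 replicate 1 alone of the C30 points reaches into or above the R30 range.

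EN2 had the smallest p-value of the named genes, and no product is described for it here. It had 5602, 5379 and 4113 in R30 leaves, 797, 899 and 387 in C30 leaves, and 102, 212, 331 and 580 in C0 leaves. R30 was above C30, and C30 overlapped C0. The difference from C0 was 4.29 ± 0.432 with an adjusted p of 8.03e-05, and that from C30 was 2.93 ± 0.462 with an adjusted p of 0.00154. In treated leaves EN2 was at 2484 to 5061 at D15 and at 4507 to 6530 at R20.

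SEOS, of the family of sieve element occlusion proteins that plug wounded phloem, had 9574, 10286 and 10138 in R30 leaves, 410, 612 and 222 in C30 leaves, and 1181, 448, 3007 and 1897 in C0 leaves. The R30 arrays were close to each other and above all others, and 2 of the 3 C30 arrays were below every C0 array. R30 minus C0 was 2.92 ± 0.636 with an adjusted p of 0.0287, and R30 minus C30 was 4.71 ± 0.68 with an adjusted p of 0.000722. The other 5 tested members of the family had estimates below 0 and the median of the 6 was -1.26, or -1.84 without C0 replicate 4. SEOA among them was at -3.39 ± 0.935 with an adjusted p of 0.0836, or 0.03 without C0 replicate 4.

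PAP25, a purple acid phosphatase, had 6843, 5471 and 3499 in R30 leaves, 371, 537 and 506 in C30 leaves, and 671, 608, 396 and 1445 in C0 leaves. R30 stood clear of both. Its difference from C0 was 2.87 ± 0.555 with an adjusted p of 0.0149, and that from C30 was 3.44 ± 0.593 with an adjusted p of 0.00331. It was the single called gene of 20 in the phosphate list, whose median was -0.15, and its 2 other probe sets were called in the same direction.

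Glutathione S-transferases, which join glutathione to reactive compounds, had 2 of 36 tested genes called higher and 0 lower, with a median of 0.54. GSTU42 had 3785, 2689 and 938 in R30 leaves, 6904, 172 and 35.2 in C30 leaves, and 57.6, 70, 61.1 and 66.8 in C0 leaves. C30 replicate 1 was above every R30 array, and the C0 arrays were tightly grouped. The R30 minus C0 difference was 5.04 ± 1.15 with an adjusted p of 0.0387. GSTU59 had 660, 733 and 495 in R30 leaves, 89.8, 74.6 and 51.0 in C30 leaves, and 152, 103, 191 and 107 in C0 leaves. R30 was highest and C30 lay below every C0 array. The differences were 2.21 ± 0.376 from C0, with an adjusted p of 0.00684, and 3.13 ± 0.402 from C30, with an adjusted p of 0.000322.

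The superoxide dismutases, which remove superoxide, moved in both directions. SOD1 had 1934, 1110 and 620 in R30 leaves, 123, 248 and 250 in C30 leaves, and 158, 147, 163 and 208 in C0 leaves, a difference from C0 of 2.71 ± 0.458 with an adjusted p of 0.00682. SODB2, an iron superoxide dismutase, had 3235, 4175 and 6128 in R30 leaves, 6175, 8968 and 11706 in C30 leaves, and 9472, 10137, 9028 and 9821 in C0 leaves. The R30 arrays of SOD1 were above, and those of SODB2 below, every C0 and C30 array. The difference of SODB2 from C0 was -1.14 ± 0.262 with an adjusted p of 0.0398. APX1, an ascorbate peroxidase, had a difference of 0.81 ± 0.195 and an adjusted p of 0.0473, but its 4 other probe sets had the opposite sign, so its direction depends on the probe set. These 3 were the called genes among 14 tested antioxidant enzymes, whose median was 0.09.

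Transcription factors were called in R30 against C0 as follows, beside 3.44% over all informative genes. Of 48 tested WRKY genes 1 was called, WRKY51, which had 717, 801 and 578 in R30 leaves, 602, 559 and 727 in C30 leaves, and 54.3, 81.3, 208 and 300 in C0 leaves. Treated and untreated old leaves overlapped and both lay above C0. The difference was 2.41 ± 0.425 for R30 and 2.27 ± 0.425 for C30, each against C0, with adjusted p-values of 0.00828 and 0.00607, and R30 minus C30 was 0.15 with an adjusted p of 0.917.

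Of 20 tested NAC genes NAC2 was called, with 1929, 1766 and 1231 in R30 leaves, 2481, 1667 and 1080 in C30 leaves, and 388, 618, 589 and 449 in C0 leaves. Again R30 and C30 overlapped above C0, with differences from C0 of 1.68 ± 0.31 in R30 and 1.71 ± 0.31 in C30. Of 56 tested MYB genes 2 were called, both higher. MYB92 had 297, 362 and 396 in R30 leaves, 150, 124 and 19.0 in C30 leaves, and 10.8, 30.0, 75.9 and 42.4 in C0 leaves, a difference from C0 of 3.40 ± 0.658 with an adjusted p of 0.0149. MYB70 had a difference of 1.15 ± 0.271 with an adjusted p of 0.0436, or 0.0675 without C0 replicate 4. In C30 against C0, 8 WRKY genes were called higher, as were 6 NAC genes, with 2 NAC genes lower. Over all informative genes that comparison called 3.05% higher and 7.86% lower. Of the 57 tested bZIP genes 0 were called in R30 against C0 by limma, and 5 had an unadjusted p under 0.05.

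Nitrogen uptake and assimilation had 18 tested genes, of which 3 were called lower in R30 than in C0 and 1 higher, with a median of -0.19. NIR, nitrite reductase, which turns nitrite into ammonium in the chloroplast, had 110, 123 and 33.3 in R30 leaves, 191, 95.1 and 139 in C30 leaves, and 1097, 395, 1743 and 2989 in C0 leaves. Old leaves of both kinds lay below every C0 array. The difference from C0 was -3.98 ± 0.678 in R30 with an adjusted p of 0.00684, and -3.16 in C30 with an adjusted p of 0.0134. Both of the 2 other NIR probe sets had the same sign of R30 minus C0. Of these 1 was called, and the other was at -1.43 with an adjusted p of 0.572. INR1, an inducible nitrate reductase, had 907, 1036 and 660 in R30 leaves, 274, 225 and 192 in C30 leaves, and 3469, 5027, 2438 and 3512 in C0 leaves. The groups did not overlap, with R30 between C30 and C0. Its difference from C0 was -2.03 ± 0.464 with an adjusted p of 0.0385 in R30 and -3.93 with an adjusted p of 0.0004 in C30, and R30 minus C30 was 1.90 ± 0.496 with an adjusted p of 0.0495.

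AS2, an asparagine synthetase, had a difference of -4.75 ± 1.09 with an adjusted p of 0.0395, or 0.0575 without C0 replicate 4. The gene that rose was GDH2, a glutamate dehydrogenase, with 229, 138 and 116 in R30 leaves, 85.3, 67.2 and 47.5 in C30 leaves, and 56.7, 57.2, 65.7 and 36.3 in C0 leaves. Its R30 arrays exceeded all others. The difference from C0 was 1.53 ± 0.337 with an adjusted p of 0.0306. The 1 other GDH2 probe set had the same sign and was not called, with an adjusted p of 0.229.

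AOX1, an alternative oxidase, which passes respiratory electrons to oxygen without pumping protons, had 170, 191 and 320 in R30 leaves, 2122, 1484 and 1513 in C30 leaves, and 993, 1657, 1347 and 347 in C0 leaves. R30 was below every other array, narrowly so for C0 replicate 4. R30 minus C0 was -2.09 ± 0.461 with an adjusted p of 0.0307, and -2.57 ± 0.394 without C0 replicate 4, with an adjusted p of 0.00259. R30 minus C30 was -2.94 ± 0.493 with an adjusted p of 0.00267. In treated leaves AOX1 was at 435 to 554 at D15 and at 304 to 335 at R20.

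XET1, a xyloglucan endotransglycosylase, which cuts and rejoins cell wall xyloglucan, had 330, 402 and 487 in R30 leaves, 877, 581 and 452 in C30 leaves, and 3181, 4739, 1910 and 1078 in C0 leaves. Both groups of old leaves lay below C0 and overlapped each other. The difference was -2.55 ± 0.529 in R30 with an adjusted p of 0.0216, and -1.94 in C30 with an adjusted p of 0.0423. It was the called gene among 11 cell wall genes, whose median was -0.42, or -1.14 without C0 replicate 4. COL19, of the CONSTANS-like family, had 351, 443 and 1075 in R30 leaves, 483, 995 and 1120 in C30 leaves, and 1412, 2453, 1924 and 1719 in C0 leaves. R30 was below C0 on every array, with a difference of -1.74 ± 0.369 and an adjusted p of 0.0252. It was the called gene among 13 of flowering and the clock, whose median was -0.68.

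Transcripts of GASA11 and FAD3C were near or under the floor after 30 days. GASA11, of a family of gibberellin-responsive peptides, had 12.6, 15.1 and 1.35 in R30 leaves, 3.81, 0.758 and 2.37 in C30 leaves, and 1869, 911, 264 and 13.5 in C0 leaves. No R30 or C30 array was above the floor, and C0 replicate 4 lay among the R30 values. GASA11 was at least 14.9-fold lower in R30 than in C0 with all arrays, with an adjusted p of 0.0413, and at least 40.2-fold lower without C0 replicate 4, with an adjusted p of 0.00117. FAD3C, a desaturase that makes linolenic acid, had 10.3, 2.30 and 12.7 in R30 leaves, 0.811, 25.4 and 9.54 in C30 leaves, and 603, 458, 28.9 and 69.7 in C0 leaves. R30 was below all C0 arrays, which spread widely. FAD3C was at least 8.16-fold lower in R30 than in C0, with an adjusted p of 0.0437, and at least 10.6-fold lower without C0 replicate 4, with an adjusted p of 0.0291. For both genes the bound sets the mean log2 signal of C0 against the higher of the floor and the signal on each R30 array. GASA11 was the called gene of 20 in the gibberellin list, whose median was -0.12, and FAD3C that of 17 in the fatty acid list, whose median was -0.20.

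**Figure D3:**
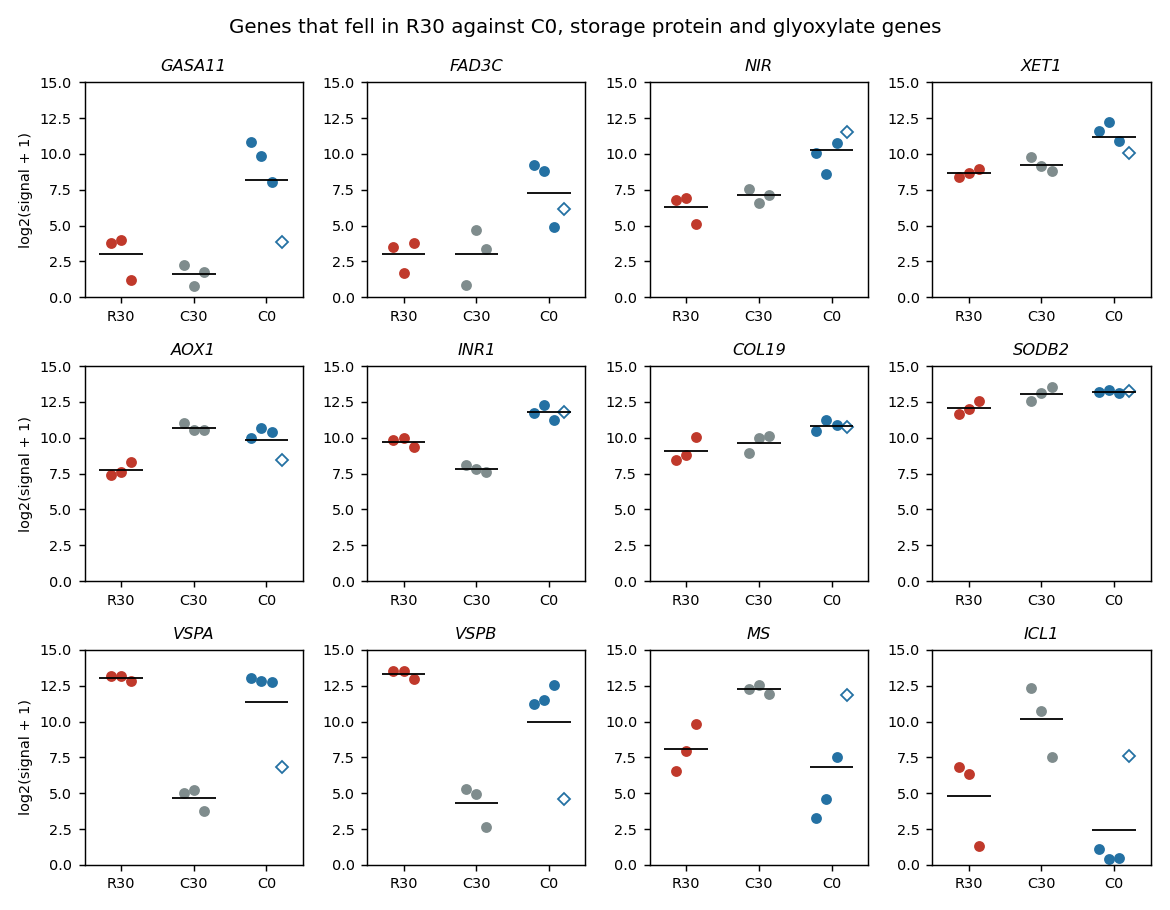
The 8 named genes that fell in R30 against C0 are shown with VSPA, VSPB, MS and ICL1, with log2(signal + 1) on the vertical axis, arrays of R30, C30 and C0 as points, C0 replicate 4 as an open diamond and lines at group means. The diamond is nearer to C30 than to the other C0 points for VSPA, VSPB, MS, ICL1, GASA11 and XET1, and GASA11 is the 1 fallen gene whose R30 points overlap C0.

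The glyoxylate cycle genes, which let cells turn fatty acids into sugars, show how far a value can rest on C0 replicate 4. MS, malate synthase, had 92.0, 242 and 894 in R30 leaves, 4891, 6140 and 3878 in C30 leaves, and 8.76, 23.6, 181 and 3748 in C0 leaves. ICL1, isocitrate lyase, had 115, 81.3 and 1.45 in R30 leaves, 5333, 1725 and 182 in C30 leaves, and 1.14, 0.318, 0.417 and 194 in C0 leaves. C0 replicate 4 was in the C30 range for ICL1 and just under it for MS, while C0 replicates 1 to 3 were at the low end. ICL1 was above the floor on 1 C0 array and on 2 R30 arrays, and MS on 3 C0 arrays and on 3 R30 arrays. The sizes of the ICL1 differences from C0 therefore rest on signals under the floor. With a pseudocount of 16, R30 minus C0 of ICL1 was 0.95 with all arrays. R30 minus C0 was 1.27 ± 1.64 for MS and 2.44 ± 1.88 for ICL1 with all arrays, and 2.95 ± 1.42 and 4.17 ± 1.72 without C0 replicate 4. Neither passed the test in either fit, with adjusted p-values between 0.254 and 0.851. In untreated leaves without C0 replicate 4, C30 minus C0 was 7.11 for MS and 9.55 for ICL1, with adjusted p-values of 0.00447 and 0.00209. R30 minus C30 was -4.16 for MS and -5.38 for ICL1, with adjusted p-values of 0.273 and 0.204, although their arrays did not overlap.

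GmCUPIN16.1, of the cupin family, had 104, 122 and 50.5 in R30 leaves, 8.15, 14.5 and 17.3 in C30 leaves, and 5054, 2756, 2713 and 15.1 in C0 leaves. C0 replicate 4 was again in the C30 range. R30 minus C0 was -3.34 ± 1.69 with an adjusted p of 0.443, and -5.27 ± 1.35 without C0 replicate 4, with an adjusted p of 0.0488.

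By the test of R30 against C30, EN2, CHI2-A, CHR5, SEOS, PAP25, SOD1, CHI1B1, GSTU59, LOX1.4, INR1 and AOX1 differed between treated and untreated leaves, among the 28 named genes called in R30 against C0. SEOS, PAP25, CHI1B1, GSTU59, LOX1.4 and AOX1 had estimates of opposite sign in treated and untreated leaves, and in none of these 6 did the untreated estimate pass the test. The naming rule of opposite sign requires a call in R30 against C30, so these 6 could not lack it. Over all informative genes R30 against C30 called 70 of 1018 (6.88%).

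**Figure D4:**
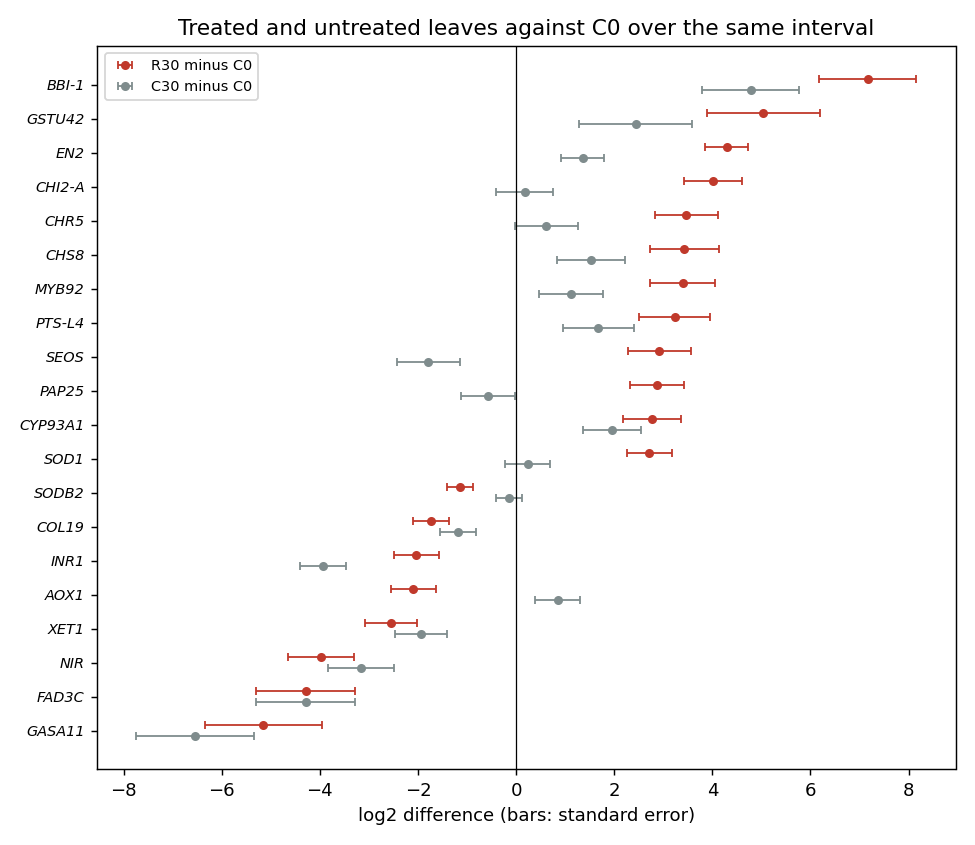
The horizontal axis is the log2 difference from C0, with R30 minus C0 in red above C30 minus C0 in grey for each of 20 named genes, and bars giving the standard error. NIR had -3.98 in R30 and -3.16 in C30, whereas SEOS had 2.92 in R30 and -1.78 in C30.

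Several gene groups had 0 members called in R30 against C0 by limma with all arrays. Their counts at an unadjusted p under 0.05 stand beside 4082 of 32776 over all tested probe sets. Photosynthesis and leaf identity had 12 tested genes and a median of -0.45, with 10 estimates below 0 and 3 genes at an unadjusted p under 0.05. Their summed signal was 42137 to 50656 in R30 leaves, 24426 to 51266 in C30 leaves and 47539 to 84389 in C0 leaves. CHLH, the magnesium chelatase subunit of chlorophyll synthesis, had 203, 206 and 345 in R30 leaves, 40.7, 194 and 581 in C30 leaves, and 4587, 3258, 417 and 872 in C0 leaves. R30 lay below C0 on every array, but the difference of -2.65 ± 0.984 had an adjusted p of 0.232. Tocopherol and carotenoid synthesis had 13 tested genes, a median of -0.89 and 6 genes at an unadjusted p under 0.05. The aquaporins, which let water through membranes, had 21 tested genes, a median of -0.66 and 3 genes at that level. Pathogenesis related proteins had 15, a median of 0.30 and 6 genes, and heat shock had 15, a median of 0.17 and 3 genes. Jasmonate synthesis and signalling had 9 tested genes, a median of 0.10 and 1 gene at that level, and auxin had 8, a median of -0.42 and 1 gene. Without C0 replicate 4, 1 gene was called in each of 3 of these groups. They were PR1-1, of the pathogenesis related proteins, with a difference of 3.03 ± 0.666 and an adjusted p of 0.0226, gTMT2, of tocopherol synthesis, with 1.20 ± 0.29 and an adjusted p of 0.0369, and the aquaporin PIP2-4, with -1.68 ± 0.391 and an adjusted p of 0.0302.

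Senescence had 7 tested genes, 0 called and 2 at an unadjusted p under 0.05, with a median of 0.02, and 0.48 without C0 replicate 4, against a median of 1.64 in C30 minus C0. VPE, a vacuolar processing enzyme, a protease, had 55.8, 50.7 and 53.7 in R30 leaves, 36.8, 40.4 and 46.8 in C30 leaves, and 6.02, 11.9, 17.4 and 46.0 in C0 leaves. C0 replicate 4 lay in the C30 range. Its difference was 1.70 ± 0.475 with an adjusted p of 0.0884, and 2.20 ± 0.402 without C0 replicate 4, with an adjusted p of 0.00789. In all, 16 of the 38 lists had a called member and 22 had none. Medians of lists are set against 0.09 over all tested probe sets, or 0.10 without C0 replicate 4.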

How the data were processed

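Leaf RNA of 22 samples was labelled with biotin and hybridised to 1 array each, per the labels' protocols. The deposited values are intensity per probe set, on a linear scale and scaled before deposit, since the 2% trimmed mean of every array is 125.009 to 125.015; the software is not named in the labels used.

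Soybean probe sets were kept if above the floor, the 95th percentile of 23350 oomycete and nematode probe sets on that array (11.8 to 22.1), on at least 3 arrays, leaving 32776 of 37593; 227 other probe sets were left out. Differences were fitted in limma 3.58.1 (R 4.3.3) to log2(value + 1). On that scale signals under the floor can give large differences, and sizes for dim genes depend on the added constant. R30 minus C0 of ICL1, for example, was 2.44 with a constant of 1 and 0.95 with 16. The fit had a term for each group, took all 22 arrays, moderated variances with a trend and adjusted p by Benjamini-Hochberg over the 32776. It was checked on simulated data.

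By the probe annotation, 8677 soybean probe sets have 1 symbol, 370 several and 28546 none. Symbols were updated through RefSeq, which lacked 21 of the gene identifiers, and 123 genes took a synonym. A gene is its tested probe set of highest mean. Of 1640 genes with several probe sets, 0 had calls in both directions. All other probe sets of MYB92 and AOX1, and 2 of the 3 others of WRKY51, were called in the same direction as the named one. Of the 28 named genes called, 10 rest on probe sets that may detect several transcripts. No sequences or coordinates are given. Named genes were the 12 largest rises and up to 12 largest falls (8 qualified) called with and without C0 replicate 4, up to 3 called members of a list or else its member of smallest p, VSPA and VSPB, the 4 genes most moved by C0 replicate 4 and up to 6 of opposite sign in C30. Those 6 also had to be called in R30 against C0 and in R30 against C30. Members and lists were chosen with earlier results of these data known, and the lists were edited by symbol after the name table was seen. Other genes named were chosen after their values were seen.

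The highest correlation between 2 of the arrays was 0.961, and no arrays held identical values. Deviations of R30 and C0 arrays with the same replicate number correlated at 0.24, -0.05 and 0.02, and those of R30 and C30 arrays at 0.27, -0.05 and 0.145. Arrays with different numbers ran from -0.27 to 0.24. So few values cannot decide whether the numbers pair the samples, and the main fit had no term for them. Alternatives were another pseudocount, filter, scaling, spread model or set of arrays, a replicate block and, chosen after seeing the data, the actin ratio as a covariate.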

Additional observations from a re-analysis of the deposited data

Results flagged for a closer look

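In C0, replicate 4 stood apart from the other 3 arrays for VSPA, VSPB, ICL1 and GmCUPIN16.1. The gap to its nearest neighbour divided by the range of the group was 0.952 for VSPA, 0.831 for VSPB and 0.892 for GmCUPIN16.1, where it was low, and 0.903 for ICL1, where it was high. Each ratio is past Dixon's critical value for 4 samples. VSPB, ICL1 and GmCUPIN16.1 were named as genes most moved by C0 replicate 4, so their ratios describe that choice and are no test of the array. Over genes not chosen for it, chance alone passes the value in about 1 of 20 groups. Over the 1018 tested informative genes 64 passed it in C0 (6.29%), and the array that stood apart was replicate 4 in 38 of them, replicate 3 in 13, replicate 1 in 7 and replicate 2 in 6.

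By the limma test of R30 minus C30, 14 of the 53 named genes moved differently from C0 in treated and untreated leaves. Over all informative genes that test called 70 of 1018 (6.88%). SEOS, PAP25, CHI1B1, GSTU59, LOX1.4 and AOX1 also met the naming rule of opposite sign in C30, which requires this call. The difference was 9.03 for VSPB, 8.39 for VSPA, 4.71 for SEOS, 4.31 for SGT2, 3.84 for CHI2-A, 3.44 for PAP25 and 3.13 for GSTU59. It was 2.93 for EN2, 2.85 for CHR5, 2.83 for CHI1B1, 2.76 for LOX1.4, 2.47 for SOD1 and 1.90 for INR1, and it was -2.94 for AOX1.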

How the results depend on the processing

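The count of R30 against C0 depends on the arrays more than on the scaling. Against 369 with all arrays, leaving out 1 array at a time gave 29 to 693: 29 without R30 replicate 1, 43 without R30 replicate 2, 114 without C0 replicate 1, 126 without C0 replicate 2 and 693 without C0 replicate 4. The same range was 351 to 3023 for C30 against C0 (1426 with all arrays; 351 without C0 replicate 1, 383 without C0 replicate 2, 678 without C30 replicate 2, 871 without C30 replicate 1, 3023 without C0 replicate 4) and 190 to 1132 for R30 against C30 (729 with all arrays; 190 without R30 replicate 1, 231 without R30 replicate 2, 357 without C30 replicate 3, 422 without C30 replicate 2, 1132 without C30 replicate 1). Without C0 replicate 4, C15 replicate 1 and R20 replicate 3 the 3 counts were 1466, 5093 and 1944, and with array weights 10475, 14091 and 13471. With the replicate number as a block, in which C0 replicate 4 has no partner and so adds nothing, R30 against C0 gave 849 and C30 against C0 gave 3520. With the actin ratio as a covariate C30 against C0 gave 2219, and with the arrays of its own groups alone 72. Why the counts moved was not tested. Median centring of R30 against C0 gave 285, 166 higher and 119 lower, and quantile normalization 468, 269 and 199. The R30 to C0 median distance was 0.432 with a pseudocount of 16, against 0.557 with 1, which shrinks differences of dim probe sets.

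Of the 28 named calls, BBI-1, CHI2-A, EN2 and NIR held under all 18 settings; 24 were lost without R30 replicate 1, 24 without R30 replicate 2, 18 without C0 replicate 1, 18 without C0 replicate 2, 8 without R30 replicate 3, 6 without C0 replicate 3 and 1, MYB70, without C0 replicate 4. The 12 rises and 8 falls were named for being called both with and without C0 replicate 4, so they could not be lost in that setting. Other settings lost calls too: 11 when only the R30 and C0 arrays were fitted, 7 without the variance trend and 4 with median centring. Quantile normalization, the replicate block and no filter on dim probe sets each lost 1. No named gene changed sign under any setting. With 3 and 4 arrays a group, signals under the floor, such as those of GASA11 in R30, have no order.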

Other observations

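Genes outside the groups described above add to the picture of R30 leaves. G6PDH, glucose-6-phosphate dehydrogenase, which feeds the oxidative pentose phosphate pathway, rose by 1.69 ± 0.331 on the log2 scale against C0, with an adjusted p of 0.0159 by limma, while C30 minus C0 was 0.34 with an adjusted p of 0.644. BG7S-1, a basic 7S globulin, rose in R30 by 2.31 ± 0.446 with an adjusted p of 0.0149, and C30 minus C0 was 1.92 with an adjusted p of 0.02. OAS-TL6, named as an O-acetylserine (thiol) lyase of cysteine synthesis, had a difference of -2.42 ± 0.544 with an adjusted p of 0.0354, or 0.0566 without C0 replicate 4. D14 had -1.23 ± 0.298 with an adjusted p of 0.0498, or 0.0679 without C0 replicate 4. It fell in untreated leaves too, with a C30 minus C0 difference of -1.38 and an adjusted p of 0.0139. R30 minus C30 of D14 was 0.15 with an adjusted p of 0.867.

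Without C0 replicate 4 further genes passed the test. The ferritin SFERH-4, of a family that stores iron in plastids, had 2.36 ± 0.402 with an adjusted p of 0.00513, and SFERH-2 had 3.82 ± 0.873 with an adjusted p of 0.0273. WRKY53 had 3.31 ± 0.614 with an adjusted p of 0.0085, and GA2OX6, a gibberellin 2-oxidase, which inactivates gibberellins, had 4.09 ± 0.825 with an adjusted p of 0.0146. TUBB3, a beta-tubulin, had -2.28 ± 0.399 with an adjusted p of 0.00635. PPCK2, a kinase of phosphoenolpyruvate carboxylase, had -2.58 ± 0.421 with an adjusted p of 0.00378. With all arrays the adjusted p-values of these 6 genes lay between 0.0559 and 0.408, and R30 minus C30 passed the test in none of them.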
